A study of Homo sapiens with 4 samples.

Results

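The CEP, HAUS and gamma-tubulin genes encode proteins of the centrosome and of the machinery from which new microtubules grow. Members were chosen by symbol. They are the genes named CEP followed by a number (also with L or NL after it), HAUS1 to HAUS8, TUBGCP2 to TUBGCP6, and PCM1, PCNT, NIN, TUBG1, SASS6 and CDK5RAP2. This rule found 47 of the 14431 genes listed, and all 47 passed the filter on low values. The rule used names alone and no measured value.

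A centrosome holds a pair of centrioles, cylinders of microtubules that are copied each cell cycle on a cartwheel built of SASS6 protein. The centrioles are wrapped in pericentriolar material, whose scaffold proteins PCNT, CDK5RAP2 and CEP192 hold gamma-tubulin ring complexes, the templates of new microtubules. Augmin, the complex of the HAUS proteins, binds microtubules of the spindle and brings gamma-tubulin to their sides so that branches form. In dividing cells, tumor cell lines included, this machinery sets up the spindle, and in resting cells the older centriole can become the base of a cilium.

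RNA was sequenced from HGC27, a human gastric cancer cell line, in 2 control libraries (genotype WT) and 2 libraries with AARS1 knocked down by small interfering RNA (siAARS1). Per the labels, all 4 libraries came from cells kept for 24 h in glucose-free DMEM to which 25 mM lactate was added, so lactate was shared by both groups. The study text gives another duration, and the time under lactate is therefore uncertain. The comparison asked which transcripts differed when AARS1, the cytosolic alanyl-tRNA synthetase, was knocked down in 1 cell line under lactate.

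AARS1 (listed as AARS) had 428 and 417 CPM (reads of a gene scaled to a common library total) in control, against 292 and 298 CPM in siAARS1, so 69.7% of the control level remained. This was a log2 fold change of -0.52 on the log2(CPM + 1) scale. It was -0.30 after the correction for transcript GC content and length described below. With the coding sequence in place of the transcript it was -0.50, and with each library scaled to its median -0.75. Between 30653210 and 33522573 reads per library fell in listed genes, and 3 reads, the most that a count of 0 allows, equalled 0.0880 to 0.0971 CPM (counting error only). Of the markers of epithelial cells, KRT8 was at 24.8 and 25.2 CPM in control and at 6.61 and 5.08 CPM in siAARS1, CDH1 was at 0.680 to 2.55 CPM, and KRT18, KRT19 and EPCAM were not analysed here. VIM (4600 to 5131 CPM) and the collagen genes COL1A1 and COL3A1, all of mesenchymal cells, were abundant in all 4 libraries and lower in both siAARS1 libraries than in both controls. COL1A1 went from 2320 and 2399 CPM to 1644 and 1542 CPM and COL3A1 from 3654 and 3755 CPM to 2627 and 2610 CPM. The blood and vessel markers PTPRC and PECAM1 were not analysed here. Whether these marker levels bear on the results was not tested.

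More members of the centrosome list were higher than lower after AARS1 knockdown. Of the 47 members, 34 differed between the groups in the main test (limma on log2(CPM + 1), adjusted p under 0.05 over all genes tested). The share was 70.7% over the 14199 genes tested, so the number of calls was near the background. By direction, 29 members (61.7%) were higher in siAARS1, beside 32.6% of all genes, and 5 members (10.6%) were lower, beside 38.0% of all genes. At least 2-fold higher mean CPM together with the call was found for 21 members, against a background of 12.7%, and no member was called and at least 2-fold lower. The median log2 fold change was 0.69 over the members and -0.05 over all genes, and the members ranged from -0.53 (HAUS4) to 2.83 (CEP350). The siAARS1 and control values did not overlap for 39 of the 47 members, beside 85.1% of all genes. The number of members called lower depended on the scaling of the libraries. When each library was scaled to its median, which moved the median of all genes from -0.05 to -0.26, 28 members were higher (23.8% of all genes) and 16 were lower (56.3% of all genes). These are bulk libraries, in which fewer cells expressing a gene and less RNA per cell cannot be told apart. No label says that the 2 libraries of a group came from separate cultures, so p-values measure the spread between these libraries, which may be technical.

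**Figure D1:**
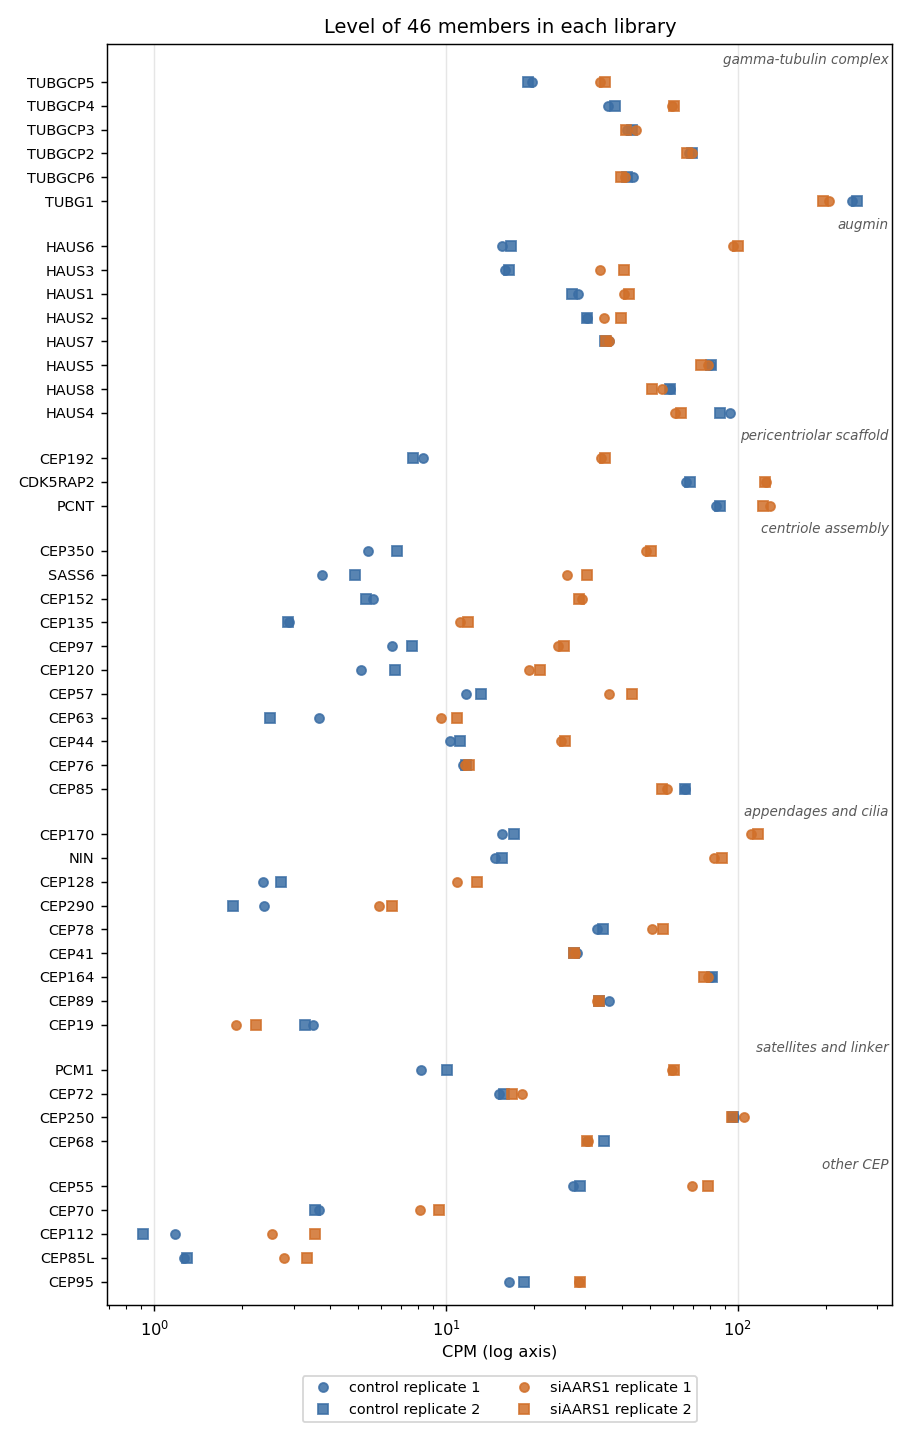
Level of 46 of the 47 members in the 4 libraries, in CPM on a log axis, grouped by role. Each point is 1 library, circles for replicate 1 and squares for replicate 2. CEP350, CEP170, PCM1, HAUS6, SASS6 and NIN show the widest gaps between control (blue) and siAARS1 (orange), and HAUS4, TUBG1, CEP19, CEP85 and HAUS8 lie lower in siAARS1. Positions compare libraries for 1 gene, since CPM is not corrected for length.

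The direction of change followed the base composition of the transcript, among the members as over the whole table. Across the 46 members with an annotated transcript, the log2 fold change correlated with the share of G and C in the transcript with Pearson's r = -0.69 and Spearman's rho = -0.73. Across the 13819 tested genes with that annotation, r was -0.61 and rho was -0.65. These correlations run across genes of the same 4 libraries, which are not independent replicates. The members were poorer in G and C than the table, with a median of 42.9% against 49.8%, and longer, with a median transcript of 4781 bases against 2971. With all genes split into 5 equal bins of GC content, 18 members lay in the bin of lowest GC content (27.8% to 41.7%), and 17 of them were higher in siAARS1, beside 79.8% of all genes in the bin. In that bin the median log2 fold change was 1.61 over the members and 0.76 over all genes. In the next bin, up to 46.8%, 8 of 11 members were higher and 1 was lower, beside 52.2% of all genes higher. Of the 17 members in the other three bins, 3 were higher (CDK5RAP2, TUBGCP4 and PCNT), beside 20.0%, 6.40% and 5.14% of all genes in those bins, and the members' medians there lay between -0.07 and -0.04.

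Stretches of coding sequence from 4 chosen members show how composition can differ between members that rose and members that did not. Among the 4 genes used, CEP350 and HAUS6 rose, HAUS5 was not called in the main test and TUBG1 fell. The 4 windows were taken at the middle of the coding sequence. Each holds 30 codons from 1 exon, in frame, read from GENCODE v29 on GRCh38, and capitals mark G or C at the third position of a codon.
CEP350, chr1:180048546-180048635, plus strand, exon 22 of 38: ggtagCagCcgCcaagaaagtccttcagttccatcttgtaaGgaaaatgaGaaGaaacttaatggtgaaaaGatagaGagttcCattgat
HAUS6, chr9:19063104-19063193, minus strand, exon 14 of 17: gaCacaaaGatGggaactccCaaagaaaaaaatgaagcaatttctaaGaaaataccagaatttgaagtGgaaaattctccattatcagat
HAUS5, chr19:35618590-35618679, plus strand, exon 12 of 19: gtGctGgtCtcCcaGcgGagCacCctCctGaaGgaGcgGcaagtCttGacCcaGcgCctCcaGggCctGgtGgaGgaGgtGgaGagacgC
TUBG1, chr17:42613849-42613938, plus strand, exon 8 of 11: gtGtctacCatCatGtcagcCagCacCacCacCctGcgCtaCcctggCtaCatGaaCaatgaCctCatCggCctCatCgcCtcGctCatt
Codons ending in G or C numbered 9 of 30 in the CEP350 window and 6 of 30 in the HAUS6 window, against 28 of 30 for HAUS5 and 25 of 30 for TUBG1. Over the whole coding sequence the share was 33.5% for CEP350, 32.4% for HAUS6, 78.2% for HAUS5 and 80.3% for TUBG1. Not every member followed this order: the share was 30.8% for CEP76, which was not called in the main test, and 64.8% for PCNT, which rose. Across the 46 members the log2 fold change correlated with that share with r = -0.68 and rho = -0.74. Across the 12312 tested genes with a coding sequence, r was -0.66 and rho was -0.68. The windows are shown as examples, not as sites of action.

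**Figure D2:**
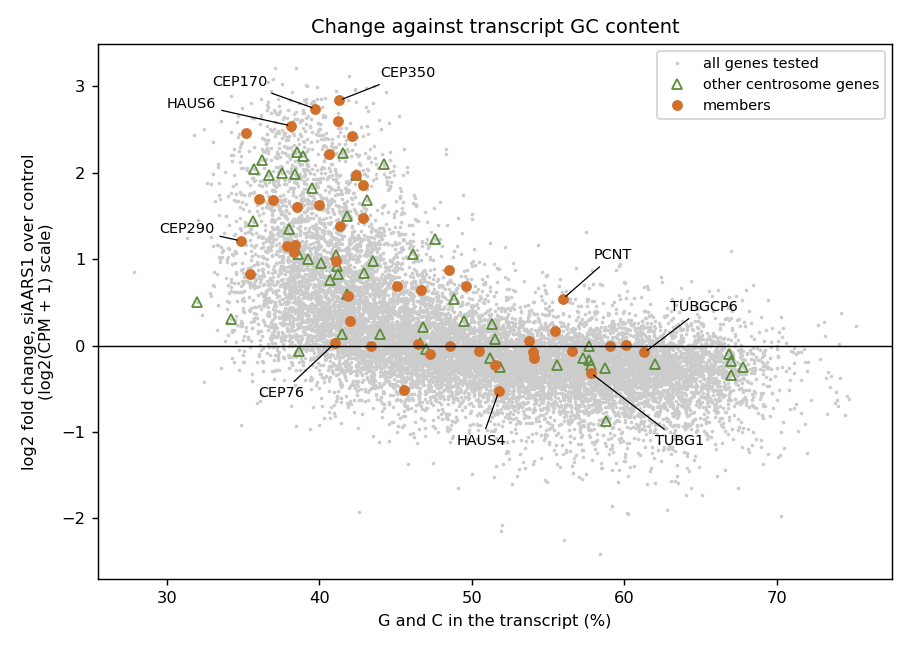
Log2 fold change of siAARS1 over control against the share of G and C in the transcript (percent), 1 point per gene, with the members in orange, 53 other centrosome genes as green triangles and all genes tested in gray. Members of low GC content reach the highest values, up to 2.83 for CEP350 at 41.3%, and TUBG1 and TUBGCP6, rich in G and C, lie at or below 0. PCNT lies above most genes of its GC content, and CEP76 lies below most genes of its own.

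When the smooth trend with transcript GC content and length was taken out of every library, the members still leaned upward but by less. Of the 46 members fitted, 32 were higher (32.8% of the 13819 genes) and 6 were lower (33.6% of those genes), and the members' median fell from 0.69 to 0.35. TUBGCP5, which was called higher, could not be fitted. Of the other 28 members called higher without the correction, 24 remained so and HAUS2 was called lower. Of the 5 called lower, only HAUS4 and CEP19 remained so. When the coding sequence was used in place of the transcript, an alternative chosen after the data were seen, 24 of 46 members were higher (33.2% of the 12311 genes fitted), 12 were lower (33.8%) and the median was 0.15. Of the same 28 members, 16 remained higher and 5 were called lower (CEP290, CEP70, CEP95, HAUS2 and HAUS3). Such corrections also take out any true change that follows composition or length, and the part of composition in the uncorrected changes was not tested.

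**Figure D3:**
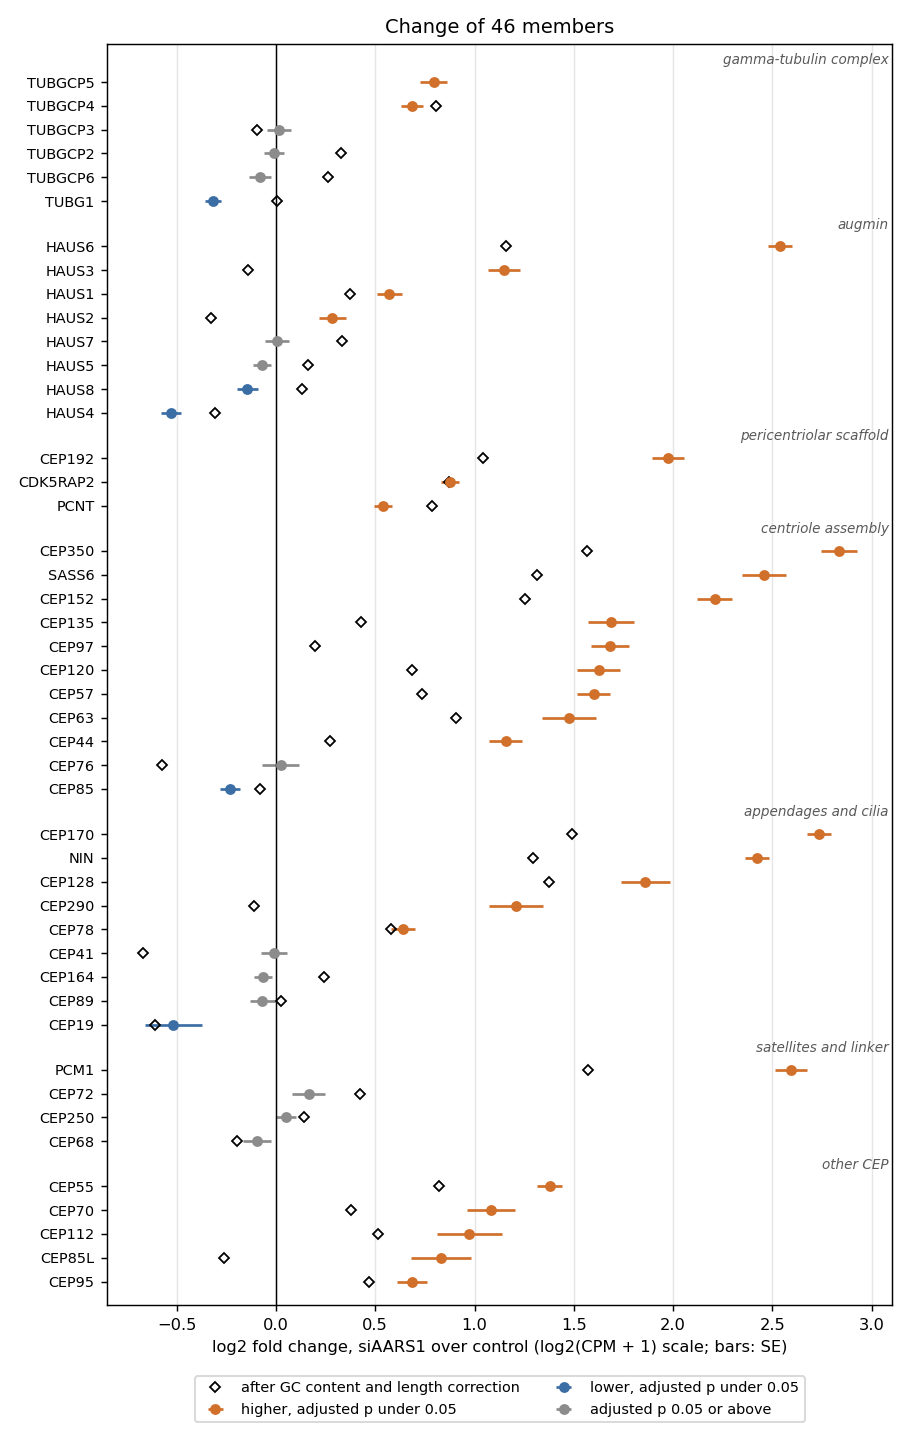
Log2 fold change of siAARS1 over control for 46 of the 47 members on the log2(CPM + 1) scale, grouped by role, with the standard error (SE) as bars. Filled points are colored by the limma call, and open diamonds give the value after correction for transcript GC content and length (not given for TUBGCP5, which had no annotated transcript). HAUS6, CEP350 and CEP170 stay well above 0 in both, while HAUS3, CEP290 and HAUS2 move from above to below 0.

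Most members that build or regulate centrioles were higher. In this group of 11, 9 were higher (81.8%, beside 32.6% of all genes) and 1 was lower (9.09%, beside 38.0%). The remaining 1 was not called in the main test. The median log2 fold change was 1.62, and 0.69 after the correction for GC and length. The group's median GC content of 40.0% lay in the lowest bin, where 79.8% of all genes were higher. CEP350 (chr1:179954738-180114880, GRCh38), a large protein that holds on to centriole microtubules, had 5.40 and 6.78 CPM in control, against 48.2 and 50.4 CPM in siAARS1. Both siAARS1 libraries were far above both controls, an 8.10-fold difference in mean CPM (log2 fold change 2.83, SE 0.09, adjusted p = 3.66e-17, limma). The value was 1.57 after the correction for GC and length. SASS6 (chr1:100083563-100132955), the cartwheel protein that sets the symmetry of a new centriole, had 3.75 and 4.89 CPM in control, against 25.9 and 30.4 CPM in siAARS1. This was 6.52-fold higher (log2 fold change 2.46, SE 0.11, adjusted p = 1.39e-14, limma), and 1.31 on the log2 scale remained after the correction.

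CEP152 (chr15:48712928-48811146), a scaffold that recruits the kinase PLK4 to the parent centriole, had 5.63 and 5.30 CPM in control, against 29.2 and 28.5 CPM in siAARS1. The groups lay well apart, 5.28-fold in mean CPM (log2 fold change 2.21, SE 0.09, adjusted p = 2.55e-15, limma). Its value was 1.25 after the transcript correction but 0.08 with an adjusted p of 0.433 (limma) after the coding sequence correction. CEP63, the partner of CEP152 on the centriole wall, rose from 3.67 and 2.49 CPM to 9.59 and 10.9 CPM. CEP57, which binds with CEP63 there, rose from 11.7 and 13.1 CPM to 36.2 and 43.2 CPM. The 3 genes of this ring of proteins therefore moved in the same direction, with log2 fold changes of 2.21, 1.48 and 1.60.

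CEP135, which links the cartwheel to the centriole wall, was at 2.90 and 2.87 CPM in control and at 11.1 and 11.9 CPM in siAARS1 (log2 fold change 1.69). CEP120, which helps centrioles elongate, went from 5.10 and 6.68 CPM to 19.2 and 21.0 CPM (1.62). CEP97, which caps centrioles together with CCP110 and keeps them from growing cilia, went from 6.51 and 7.63 CPM to 24.2 and 25.4 CPM (1.68). Every siAARS1 value of these genes lay above every control value, but the differences shrank to 0.43, 0.69 and 0.20 after the correction for GC and length, and CEP135 turned to -0.23 after the coding sequence correction. CEP44, which takes part in turning a centriole into a centrosome, had 10.3 and 11.1 CPM against 24.7 and 25.6 CPM, and its log2 fold change of 1.16 was 0.27 after the correction. CEP76, a brake on repeated duplication, had 11.4 and 11.7 CPM in control, against 11.6 and 11.9 CPM in siAARS1, groups that overlap (log2 fold change 0.02, 95% interval -0.17 to 0.22). CEP76 was lower after the correction (-0.57), and 79.8% of the genes in its bin of GC content were higher in siAARS1. CEP85, which binds STIL and is also known for restraining the kinase NEK2, was lower, at 66.0 and 65.7 CPM in control, against 57.3 and 54.9 CPM in siAARS1 (log2 fold change -0.23, SE 0.05, adjusted p = 0.000370, limma). Its call was lost after the correction (-0.08).

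All 3 members of the pericentriolar scaffold rose, beside 32.6% of all genes called higher. CEP192 (chr18:12991362-13125052), which recruits the mitotic kinases AURKA and PLK1 to the centrosome, had 8.36 and 7.69 CPM in control, against 34.0 and 35.0 CPM in siAARS1. This 4.29-fold difference (log2 fold change 1.98, SE 0.08, adjusted p = 3.63e-15, limma) came to 1.04 after the transcript correction and to -0.12 after the coding sequence correction. CDK5RAP2 (chr9:120388869-120580170), which anchors and activates gamma-tubulin complexes, had 66.1 and 68.4 CPM against 125 and 124 CPM, with a log2 fold change of 0.88 that was 0.87 after the transcript correction and 0.07, with no call, after the coding sequence correction. PCNT (chr21:46324122-46445769), the large coiled-coil scaffold that carries CDK5RAP2 and gamma-tubulin complexes, had 84.3 and 86.9 CPM against 129 and 122 CPM. PCNT was the member higher in siAARS1 at the highest GC content, 56.0%. Its log2 fold change of 0.54 (SE 0.04, adjusted p = 6.07e-10, limma) was 0.79 after the correction.

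The subunits of augmin moved in different directions. Of the 8 HAUS genes, 4 were higher (50%, beside 32.6% of all genes) and 2 were lower (25%, beside 38.0%). The other 2 were not called in the main test. The median log2 fold change over the 8 genes was 0.14. HAUS6 (chr9:19053143-19103119), the subunit that binds NEDD1 and so brings in gamma-tubulin, had 15.5 and 16.6 CPM in control, against 96.1 and 100.3 CPM in siAARS1. It was 6.11-fold higher (log2 fold change 2.54, SE 0.06, adjusted p = 2.55e-19, limma) and at 1.16 after the correction. HAUS4 (chr14:22946228-22957161), a core subunit, moved the other way, with 93.8 and 87.0 CPM in control, against 60.7 and 64.0 CPM in siAARS1. Its log2 fold change of -0.53 (SE 0.05, adjusted p = 5.86e-09, limma) was -0.31 after the correction, and 30.9% of its annotated exon bases lie on the same strand within RP11-298I3.5, so its reads could be split between the genes.

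Of the other augmin subunits, HAUS3 had 15.9 and 16.4 CPM against 33.6 and 40.6 CPM, and its log2 fold change of 1.15 became -0.14 after the correction. HAUS1 had 28.3 and 26.9 CPM against 40.6 and 42.4 CPM, and its value of 0.57 became 0.37. HAUS2 had 30.4 and 30.3 CPM against 34.7 and 39.9 CPM, and its value of 0.28 became -0.33. For HAUS1, HAUS2 and HAUS3 the siAARS1 libraries were the higher ones, but the direction of HAUS2 and HAUS3 turned with the correction. HAUS8, which carries the microtubule-binding end of augmin, had 58.5 and 58.4 CPM against 54.7 and 50.9 CPM (log2 fold change -0.14, SE 0.05, adjusted p = 0.0198, limma). The HAUS8 call was lost without control replicate 1 or control replicate 2 (-0.14 in each case) and without siAARS1 replicate 2 (-0.09), and the sign turned to 0.13 after the correction. HAUS5 had 80.1 and 80.9 CPM against 78.8 and 74.4 CPM (95% interval of the log2 fold change -0.17 to 0.03). HAUS7 had 36.3 and 34.9 CPM against 36.1 and 35.2 CPM (-0.12 to 0.13), with 35.6% of its exon bases within TREX2 on the same strand. HAUS5 and HAUS7 were called lower under median scaling (-0.30 and -0.22) and higher after the correction for GC and length (0.16 and 0.33).

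Set side by side per kilobase of transcript and not corrected for GC content, the augmin subunits came closer to each other in siAARS1. HAUS4 was the highest subunit in every library, at 57.1 and 53.0 CPM per kb in control and 37.0 and 38.9 CPM per kb in siAARS1. HAUS6 was the lowest in control, at 2.38 and 2.54 CPM per kb, and HAUS3 was the lowest in siAARS1, at 5.99 and 7.23 CPM per kb. The highest subunit was therefore 24.0 and 20.9 times the lowest in the control libraries and 6.17 and 5.39 times in the siAARS1 libraries. In both groups the order of the 8 subunits was the same in both replicates. In both control libraries it ran HAUS4, HAUS8, HAUS7, HAUS1, HAUS5, HAUS2, HAUS3, HAUS6, and in siAARS1 HAUS1 stood next to HAUS4 and HAUS6 had passed HAUS2 and HAUS3. After the correction for GC and length, the log2 fold change of HAUS6 fell from 2.54 to 1.16 and that of HAUS3 from 1.15 to -0.14. That of HAUS4 went from -0.53 to -0.31. How far the subunits came closer after the correction was not tested, nor was the order of neighbors.

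**Figure D4:**
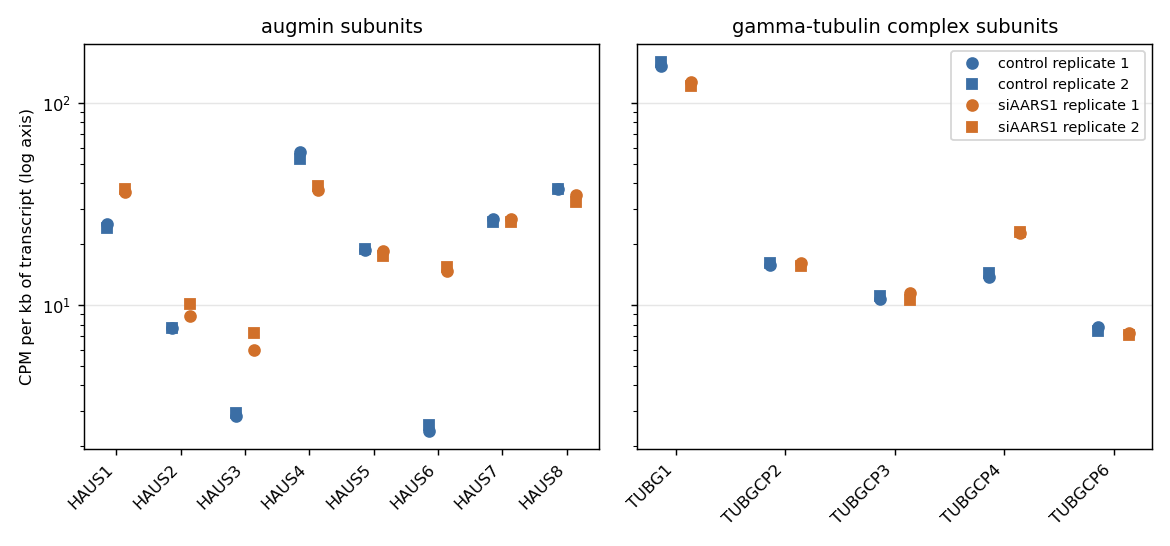
CPM per kilobase of transcript (log axis) of the 8 augmin subunits and of the 5 gamma-tubulin complex subunits with an annotated transcript, 1 point per library, control in blue and siAARS1 in orange. HAUS6 and HAUS3 move up toward the other HAUS genes and HAUS4 moves down, while TUBG1 stays the highest of its complex in all 4 libraries. Values are not corrected for GC content.

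The gamma-tubulin complex had the median nearest 0 of the 7 role groups before any correction. Of its 6 members 2 were higher (32.6% of all genes), 1 was lower (38.0%) and 3 were not called in the main test. The complex had a median log2 fold change of 0.0031. Its median GC content, 57.8%, was the highest of the groups, in a bin where 6.40% of all genes were higher. After the correction for GC and length, 3 of the 5 members fitted were higher (32.8% of all genes) and 0 were lower. The median was then 0.26, above that of augmin (0.15). TUBG1 (chr17:42609676-42615234), gamma-tubulin itself, had 245 and 255 CPM in control, against 205 and 196 CPM in siAARS1. Both siAARS1 libraries were below both controls (log2 fold change -0.32, SE 0.04, adjusted p = 3.05e-07, limma), but the value was 0.0034 after the correction for GC and length. TUBG2, a close paralog of TUBG1 outside the list, had 35.6 and 35.4 CPM against 19.6 and 18.1 CPM, and how reads shared by the paralogs were divided is uncertain.

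The small complex of TUBG1 with TUBGCP2 and TUBGCP3 supplies most spokes of the ring, and neither TUBGCP gene passed the test. TUBGCP2 had 67.8 and 69.5 CPM against 69.7 and 66.7 CPM (95% interval of the log2 fold change -0.11 to 0.09). TUBGCP3 had 41.6 and 43.4 CPM against 44.6 and 41.4 CPM (-0.11 to 0.14). The groups overlapped for both, and both were called lower under median scaling, at -0.23 and -0.21, while TUBGCP2 was called higher after the correction for GC and length, at 0.33. The ring-specific subunits TUBGCP4 and TUBGCP5 rose. TUBGCP4 had 35.9 and 37.8 CPM against 59.5 and 60.3 CPM, with a log2 fold change of 0.69 that was 0.81 after the correction. Its exons share 33.4% of their bases with TP53BP1 on the opposite strand, and whether the counting used strand is not given in the sources used here. TUBGCP5 had 19.6 and 19.1 CPM against 33.7 and 34.9 CPM (log2 fold change 0.79). TUBGCP6, the largest of these subunits, had 43.8 and 41.8 CPM against 40.9 and 39.9 CPM (95% interval -0.20 to 0.04). Its value was -0.30 under median scaling and 0.26 after the correction, with a call in opposite directions. Per kilobase, TUBG1 was 19.5 and 21.3 times TUBGCP6 in the control libraries and 17.5 and 17.1 times in the siAARS1 libraries. TUBGCP4 stood below TUBGCP2 in both controls and above it in both siAARS1 libraries.

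Of the 10 members of centriole appendages and cilia, 5 were higher (50%, beside 32.6% of all genes) and 1 was lower (10%, beside 38.0%). The other 4 were not called in the main test, and the median log2 fold change of the group was 0.32. CEP170 (chr1:243124428-243255348), a marker of the mature centriole's subdistal appendages, had 15.5 and 17.0 CPM in control, against 110.5 and 117 CPM in siAARS1. It was 7.01-fold higher (log2 fold change 2.74, SE 0.06, adjusted p = 1.02e-19, limma) and at 1.49 after the correction. The near copy CEP170P1 was at 0.147 and 0.158 CPM in control and at 1.29 and 1.08 CPM in siAARS1, and reads could be split between the genes. NIN (chr14:50719763-50831121), ninein, which anchors microtubules at the same appendages, had 14.7 and 15.6 CPM against 83.1 and 88.2 CPM. Its log2 fold change of 2.42 (SE 0.06, adjusted p = 9.93e-19, limma) was 1.29 after the correction. CEP128, needed to assemble subdistal appendages, went from 2.35 and 2.71 CPM to 10.9 and 12.7 CPM. The 3 members of the subdistal appendages thus lay 4.67-fold to 7.01-fold above control. Outside the list, ODF2, a gene of the same appendages named after its values were seen, was called lower (log2 fold change -0.15). It had 92.5 and 93.5 CPM in control, against 86.2 and 81.7 CPM in siAARS1, and passed no test after the correction (-0.0069).

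The members of the distal appendages and the cilium base gave smaller changes than CEP170, NIN and CEP128. CEP290, a gatekeeper of the ciliary transition zone, went from 2.37 and 1.86 CPM to 5.89 and 6.50 CPM (log2 fold change 1.21), but to -0.11 after the correction, with the lowest GC content of all members (34.8%). CEP78, which acts at the centriole's distal end, went from 32.8 and 34.4 CPM to 50.7 and 55.3 CPM (0.64). CEP164, which forms the distal appendages, had 80.9 and 81.6 CPM against 78.7 and 76.6 CPM. Its log2 fold change of -0.07 was not called in the main test (95% interval -0.16 to 0.03). CEP89, a protein of the distal appendages, and CEP41, which acts in ciliary tubulin modification, had log2 fold changes of -0.07 and -0.01, and neither passed the test. After the correction CEP164 was called higher (0.24) and CEP41 lower (-0.67). CEP19, a ciliogenesis factor named here after its values were seen, was low and lower in siAARS1, at 3.49 and 3.28 CPM against 1.91 and 2.23 CPM. Its log2 fold change was -0.52 (SE 0.14, adjusted p = 0.00289, limma) and -0.61 after the correction.

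Of the 4 members of centriolar satellites and the linker between centrioles, PCM1 rose and the other 3 were not called in the main test. Over all genes 32.6% were higher. PCM1, the scaffold of centriolar satellites, the granules that ferry proteins to the centrosome, had 8.21 and 10.1 CPM in control, against 59.5 and 60.5 CPM in siAARS1. It was 6.56-fold higher (log2 fold change 2.59, SE 0.08, adjusted p = 2.75e-17, limma) and at 1.57 after the correction. CEP72, a satellite protein that binds PCM1, had 15.2 and 15.7 CPM against 18.1 and 16.7 CPM (log2 fold change 0.16, 95% interval -0.01 to 0.34). CEP250, the main linker filament protein, had 97.1 and 96.3 CPM against 105 and 95.4 CPM (0.05, -0.05 to 0.15). Its groups overlap, and without siAARS1 replicate 2 it was called higher (0.12), while under median scaling it was called lower (-0.18). CEP68, which decorates the linker, had 30.5 and 34.9 CPM against 30.7 and 30.3 CPM (-0.09, -0.24 to 0.05). After the correction all 4 were called, with CEP72 (0.42), CEP250 (0.14) and PCM1 higher and CEP68 lower (-0.20).

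The 5 remaining CEP members were all higher, by log2 fold changes of 0.69 to 1.38. Over all genes 32.6% were higher. In the bin of lowest GC content, which holds the group's median of 41.1%, the share was 79.8%. CEP70, reported to bind gamma-tubulin, went from 3.67 and 3.56 CPM to 8.13 and 9.48 CPM, and CEP95, a coiled-coil protein, from 16.4 and 18.5 CPM to 28.5 and 28.8 CPM. CEP55, a midbody protein of abscission rather than a centriole part, was named after its values were seen. It went from 27.1 and 28.8 CPM to 69.7 and 79.0 CPM, a log2 fold change of 1.38 that was 0.82 after the correction. The values of CEP70 and CEP95 were 0.38 and 0.47 after the correction for GC and length, and both were called lower after the coding sequence correction (-0.29 and -0.50). The other two, CEP112 and CEP85L, also named after their values were seen, were at 0.51 and -0.26 after the first correction and at -0.13 and -0.16, with no call, after the second.

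Promoters of the members were searched for motifs, none of which was found for every member. The windows are those of RefSeq (GRCh38.p14), 250 bases before to 50 after a gene's start, and 42 of the 47 members had one. The letters searched on both strands were TTTGAA (core of the CHR element of cell cycle genes), GCGGGAA (an E2F motif) and GGAATG (a TEAD motif). TTTGAA was found for 15 members (35.7%), beside 13.5% of the 9725 listed genes with a window. GCGGGAA was found for 14 members (33.3%), beside 12.9%, and GGAATG for 3 members (7.14%), beside 15.1%. Among the members, the median log2 fold change was 1.16 with TTTGAA and 0.54 without it, and -0.0025 with GCGGGAA and 1.03 without it. These medians were not corrected for GC content and were not computed over all genes. Whether a motif goes with the change was not tested. TTTGAA and GCGGGAA were both found for 4 members, of which CEP152, CEP192 and CEP55 were higher in siAARS1 and HAUS8 was lower. The window of TUBG1, which fell, holds neither motif and is not shown. The windows of CEP152 and CEP192, with the motifs in capitals for either strand, are shown beside that of HAUS6, which rose and holds neither.
CEP152, chr15:48811020-48811319, minus strand: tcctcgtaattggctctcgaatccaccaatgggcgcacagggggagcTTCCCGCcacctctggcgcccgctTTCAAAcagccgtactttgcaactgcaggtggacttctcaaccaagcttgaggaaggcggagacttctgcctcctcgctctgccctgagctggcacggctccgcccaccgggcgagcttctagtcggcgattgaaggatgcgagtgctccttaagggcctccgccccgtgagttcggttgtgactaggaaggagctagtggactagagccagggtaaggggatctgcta
CEP192, chr18:12991112-12991411, plus strand: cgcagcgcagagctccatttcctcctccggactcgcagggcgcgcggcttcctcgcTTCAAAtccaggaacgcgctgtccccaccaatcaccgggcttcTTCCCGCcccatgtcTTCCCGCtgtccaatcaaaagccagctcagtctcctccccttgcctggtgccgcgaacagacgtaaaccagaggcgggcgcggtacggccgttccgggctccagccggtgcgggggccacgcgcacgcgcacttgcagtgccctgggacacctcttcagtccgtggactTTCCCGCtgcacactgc
HAUS6, chr9:19102855-19103154, minus strand: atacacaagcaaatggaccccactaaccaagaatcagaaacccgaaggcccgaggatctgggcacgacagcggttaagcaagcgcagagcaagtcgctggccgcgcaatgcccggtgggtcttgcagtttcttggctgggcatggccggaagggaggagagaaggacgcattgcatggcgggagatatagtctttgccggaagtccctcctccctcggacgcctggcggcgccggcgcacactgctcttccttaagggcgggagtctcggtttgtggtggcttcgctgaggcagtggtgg
A match is a run of letters and not a measured binding site.

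Rises also outnumbered falls among 53 other genes of the centrosome, listed by function and outside the naming rule. Of these, 33 were higher (32.6% of all genes), 12 were lower (38.0% of all genes) and 8 were not called in the main test. The median log2 fold change was 0.59, and 0.18 after the correction for GC and length. That correction left 34 higher (32.8% of the genes fitted) and 6 lower (33.6%). After the coding sequence correction the counts were nearly even, with 19 higher (33.2%) and 17 lower (33.8%). Without siAARS1 replicate 2 the number lower was 7. PLK4, the kinase that starts centriole duplication, had 8.89 and 8.48 CPM against 35.6 and 38.9 CPM (log2 fold change 1.98). Its partner STIL had 16.1 and 16.9 CPM against 47.7 and 49.1 CPM (1.50). CENPJ, which sets centriole length, was at 1.97. With SASS6, CEP152 and CEP192, these genes of the duplication pathway were all higher in siAARS1. After the coding sequence correction PLK4 passed no test, and STIL, at -0.34, turned lower, as had CEP192 in sign.

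Of the same 53 genes, the largest rises were those of CCP110 (log2 fold change 2.23), the cap protein that works with CEP97, KIAA0586 (2.22), a ciliogenesis protein, and CCDC14 (2.19), a satellite protein. NEDD1, the adaptor between augmin and gamma-tubulin, was higher at 1.82. The lowest values were those of TUBG2 (-0.88), MZT2B (-0.34), a small protein of the gamma-tubulin ring, and CNTROB (-0.26), a daughter centriole protein. After the correction TUBG2 was still called lower (-0.56), while MZT2B (-0.0078) and CNTROB (0.070) passed no test. AURKA, the kinase bound by CEP192, had 62.2 and 65.1 CPM against 66.8 and 62.7 CPM. It was not called in the main test (log2 fold change 0.02). PLK1, the mitotic kinase of centrosome maturation, had 186 and 186 CPM against 174 and 163 CPM (-0.15, adjusted p = 0.00307, limma), and its sign turned to 0.16 after the correction. The comparison of the members with these genes was not tested.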

How the data were processed

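RNA-seq of 4 HGC27 libraries was analysed, with groups and replicate numbers taken from the sample titles. The authors deposited 1 table of CPM values, which are read counts scaled to library size and not corrected for gene length or composition. Per the submitters' processing notes, RSEM 1.3.3 and hg38 were used. The aligner, the gene annotation and the use of strand are not given in the sources used here. In every library 100% of the values were whole multiples of 1 read (tolerance 0.0006 CPM), from which whole read counts were recovered. The chi-square statistic between replicates was 3.63 (control) and 3.62 (siAARS1) per gene, above sampling noise, so all 4 libraries were kept.

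The main test was limma 3.58.1 (R 4.3.3, eBayes with a trend) on log2(CPM + 1) of the 14199 genes whose mean reached 1 CPM in 1 group or both, with Benjamini-Hochberg adjustment over all of them and a threshold of 0.05. Fold changes on this scale understate those of low genes. Transcript GC content and length are those of the transcript with the longest coding sequence in GENCODE v29 (46 of 47 members), and coordinates are those of the whole gene there. The correction removed from each library its smooth trend (mgcv 1.9.3) with GC content and length. Alternatives were edgeR 4.0.16 on recovered reads, median scaling, quantile normalization, a pseudocount of 0.1, no filter, a threshold of 0.01, the replicate block and leaving out each library. The code was also run on simulated counts with the same spread for all genes and a linear GC trend. That setting is simpler than these data and does not measure error rates here.

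The members, role groups, other centrosome genes and tests were chosen with earlier results of these data known. Named are the members other than CEP genes, the 10 highest and 6 lowest CEP members among those called whose higher group averaged 5 CPM or more, the CEP members not called (1 of them counts in the totals and is not reported here on its own), AARS1, and of the other centrosome genes the 3 highest, the 3 lowest, PLK4, STIL, CENPJ, NEDD1, AURKA and PLK1.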

Additional observations from a re-analysis of the deposited data

How the results depend on the processing

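The counts of members called higher (29) stayed within 1.5 times under every alternative, and no alternative turned the members' median. The filter, a pseudocount of 0.1, a threshold of 0.01, edgeR and leaving out a library turned no direction of a gene called in either fit. Median scaling and quantile normalization moved the median of all genes from -0.05 to -0.26 and -0.15, and values are relative to that shift: 11378 genes were called under median scaling with 3379 higher, against 10032 with 4633 higher. There, 16 and 15 members were called lower (5 without rescaling), 12 after the coding sequence correction, and the members' median was 0.47 and 0.55. It was 0.35 once GC and length were corrected, the replicate block added or not, and 0.15 after the coding sequence correction. Other centrosome genes called lower fell from 12 to 6 once GC and length were corrected, block or not, and to 7 to 12 on leaving out a library, but rose to 18 under median scaling, 15 under quantile normalization and 17 after the coding sequence correction, and those called higher fell from 33 to 19 with the coding sequence correction. The cause was not tested.

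For the genes named by the rule, signs turned as follows, with a call in the main fit, in the alternative or in both. Median scaling: TUBGCP3 -0.21, HAUS7 -0.22, CEP250 -0.18, AURKA -0.20. Quantile normalization: TUBGCP3 -0.14, HAUS7 -0.18, CEP76 -0.22. The correction for GC and length, with or without the replicate block, gave HAUS3 -0.14, HAUS2 -0.33, TUBGCP2 0.33, HAUS5 0.16, TUBGCP6 0.26, HAUS8 0.13, TUBG1 0.0034, CEP290 -0.11, CEP76 -0.57, CEP164 0.24, CNTROB 0.070 and PLK1 0.16. The coding sequence correction, chosen after the data were seen, gave HAUS3 -0.64, HAUS2 -0.20, TUBGCP3 -0.31, TUBGCP2 0.23, HAUS5 0.27, TUBGCP6 0.24, HAUS8 0.036, CEP192 -0.12, CEP135 -0.23, CEP290 -0.77, CEP70 -0.29, CEP95 -0.50, CEP78 -0.024, CEP76 -0.90, CEP164 0.13, CEP68 0.18, CNTROB 0.023, MZT2B 0.069, STIL -0.34, AURKA -0.39 and PLK1 0.12. After the correction for GC and length without the block, HAUS3, TUBG1, CEP290 and CNTROB had no call of their own. After the coding sequence correction, HAUS8, CEP192, CEP135, CEP78, CNTROB and MZT2B had none. Outside that rule, CEP85L turned from 0.83 to -0.26 and -0.16 under these corrections and CEP112 from 0.97 to -0.13 under the latter, with no call.

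The labels do not say that a replicate number marks a shared culture or day, and with 2 pairs the numbers were taken as names only. Across the 14199 genes, the deviations of same-numbered libraries from their group means correlated with r = 0.118. With the replicate number as a block, 10389 genes were called in place of 10032, and the members' counts were the same, 29 higher and 5 lower. With 2 libraries per group, the spread is estimated mostly from other genes of like level, and low genes such as CEP19 carry wide errors (SE 0.14). With edgeR, the test of the recovered reads gave 9806 calls in all and 34 among the members, 30 of them higher, and the HAUS8 call was lost. Depth limits the detection of the members little, since 3 reads equalled at most 0.0971 CPM. It does limit the precision of low members, such as CEP112 with 40 and 29 reads in control (SE 0.16).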

Other observations

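Centrosomal proteins whose genes are listed under an older or longer symbol were not reached by the naming rule, and they were picked after their values were seen. Of these, 5 were higher in siAARS1, beside 32.6% of all genes. The transcripts of these 5 hold 37.0% to 40.3% G and C. That is within the bin of lowest GC content, where 79.8% of all genes were higher. KIAA1731, now called CEP295, which converts young centrioles into centrosomes, had 1.50 and 2.05 CPM in control, against 11.5 and 12.1 CPM in siAARS1 (log2 fold change 2.21, adjusted p = 1.49e-12, limma). The value was 1.14 after correction for transcript GC content and length and 0.09 after the coding sequence correction. CCDC41 (CEP83), which anchors the distal appendages, was at 3.05 and 3.03 CPM against 10.3 and 10.5 CPM, and CEP57L1, the relative of CEP57, at 3.84 and 3.88 CPM against 11.9 and 13.1 CPM. KIAA1009 (CEP162) and KIAA1377 (CEP126), microtubule-binding proteins of the cilium base, were low, with log2 fold changes of 1.44 and 1.07. After the transcript correction these were 0.56 and 0.15, the latter with no call, and after the coding sequence correction -0.14, with no call, and -0.46, called lower. CCDC41 and CEP57L1 were at 0.68 and 0.93 after the first correction and at -0.0042, with no call, and 0.36 after the second. CEP170B, the relative of CEP170, was lower, at 142 and 143 CPM against 116 and 111 CPM (log2 fold change -0.32), and AZI1 (CEP131), a satellite protein, was lower by the same test (-0.25). The transcripts of CEP170B and AZI1 hold 66.2% and 65.6% G and C, and after the correction their values were 0.0081 and 0.12.

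Other motifs were searched in the promoter windows of the members on both strands. TTTGGCGC, another E2F form, was found for 2 members (4.76%, beside 1.45% of listed genes), CCAAT for 16 (38.1%, beside 43.6%), the ETS motif CCGGAAG for 8 (19.0%, beside 22.0%) and TGACGTCA, the full CRE, for 4 (9.52%, beside 3.81%).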
